A study of Mus musculus with 8 samples.

Results

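The genes of Wnt signalling were examined for acetylation of lysine 56 of histone H3 (H3K56ac) in MuSCs, the stem cells that reside in skeletal muscle and rebuild its fibers. Members were the protein-coding genes of the GENCODE annotation with the symbols Wnt or Fzd followed by a number, Sfrp1 to Sfrp5, Dkk1 to Dkk4, Lrp5, Lrp6, Lgr4 to Lgr6, Rspo1 to Rspo4, Axin1, Axin2, Tcf7, Tcf7l1, Tcf7l2, Lef1 and Ctnnb1. This rule used names only and found 53 of 21938 protein-coding genes, namely 19 Wnt ligands, 10 Frizzled receptors, 2 Lrp co-receptors, 4 R-spondins, 3 Lgr receptors, 8 secreted inhibitors (4 Sfrp and 4 Dkk genes), 3 genes for the Axins and β-catenin, and 4 TCF/LEF factors.

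The study asked where H3K56ac lies in MuSCs and how loss of the deacetylase SIRT6 alters it. MuSCs of C57BL/6 background were sorted by FACS and used without culture. Control cells were wild type per the labels, and Sirt6mKO cells came from mice with loxP sites around exons of Sirt6 and the Pax7-ICNCre allele, in which Cre is expressed under the Pax7 promoter, so that Sirt6 is lost in the myogenic lineage and not in MuSCs alone. A ROSA26-YFP reporter was among the strains crossed for the Sirt6mKO mice, and the labels give neither age nor sex. The 8 libraries form 4 groups of 2 replicates, an H3K56ac and an input group for each genotype, where input is chromatin that was not immunoprecipitated.

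The values below come from 1 list of 105600 merged peaks, the intervals in which H3K56ac reads were called enriched. The list separates neither genotypes nor replicates, and it does not say which libraries entered the merge. An interval at a Wnt gene may therefore come from Control cells, from Sirt6mKO cells or from both, and Control and Sirt6mKO were not compared. The paper reports more H3K56ac peaks in Sirt6mKO MuSCs than in Control. It also describes peaks after loss of Sirt6 as much broader than those of other histone marks. Presence and width of a peak below therefore need not hold for Control cells. The depth of each library is unknown from this list, its score was 0 in every row, and peaks have a position and a width but no height. Merging lengthens intervals, so the widths belong to the union and not to a single library. The labelled cell type was checked with marker genes: all 8 MuSC markers, Pax7 and Myf5 among them, carried one over 5 kb in width near a start, with a median width of 12834.5 bp and a median of 70.0% of the gene covered. Cells with the surface proteins encoded by Ly6a, Ptprc or Pecam1 were removed before the sort, which then selected for the products of Cd34 and Itga7 or for a fluorescent reporter, and the methods state that the sorted cells were not pure. Of 15 markers of endothelial, fibro-adipogenic, haematopoietic and Schwann cells, 11 had a promoter peak (73.3%, beside 67.8% of all protein-coding genes). No base was covered in the endothelial gene Cdh5, the fibro-adipogenic gene Ly6a, or the haematopoietic genes Ptprc and Itgam (26.7%, beside 30.9%). Both shares were close to those of all protein-coding genes. The widest promoter peaks in these lists were those of Tek (12975 bp) and Dpt (9775 bp), and narrower ones occurred at Spi1 (5513 bp), Pdgfra (4396 bp), Pecam1 (3440 bp) and Cd68 (2636 bp) with 31.9% of the gene covered. All 3 Schwann cell markers counted here had one, of 564 to 4238 bp. What cells of these types contribute to the peaks described here was not tested. In sorted but bulk chromatin, a signal in few cells and a weak signal in all cells cannot be told apart.

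Wnt proteins are secreted lipid-modified ligands that bind a Frizzled receptor, alone or together with the co-receptor LRP5 or LRP6. In the canonical branch this stops a complex built on AXIN1 or AXIN2 from marking β-catenin (Ctnnb1) for destruction, and β-catenin then works with TCF/LEF factors on target genes such as Axin2. R-spondins, which bind LGR4, LGR5 or LGR6, keep Frizzled receptors at the cell surface, while SFRP and DKK proteins block ligands or co-receptors from outside. In muscle, WNT7A acting through FZD7 drives expansion of MuSCs, WNT4 from myofibers has been tied to MuSC quiescence, and RSPO1 acts on differentiating progenitors.

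Promoters with many CpG dinucleotides occurred among the members with the widest peaks and among those with none. Promoter stretches of 5 members, with wide peaks or with none, are printed here. Each stretch was taken from the RefSeq promoter table (GRCm38.p6, the same build as mm10) and runs 5′ to 3′ on the gene's own strand. It lies in the 250 bases before the RefSeq start of the gene and was shortened where it met an annotated exon. The stretches of Fzd4 and Wnt7a therefore end directly before the GENCODE start, which lies 11 and 10 bp upstream of the RefSeq start. Capitals mark CpG dinucleotides. Fzd7 (chr1:59481897-59482146, plus strand) and Fzd4 (chr7:89404223-89404354, plus strand) are the receptor genes with the widest peaks, and all 250 and all 132 bases of their stretches lay inside a peak. The RefSeq start of Fzd7 lies 277 bp upstream of the GENCODE start used elsewhere. Lgr4 (chr2:109917397-109917646, plus strand) is the R-spondin receptor with the widest peak, and the last 146 of its 250 bases lay in it. Wnt7a (chr6:91411364-91411603, minus strand) and Rspo4 (chr2:151842677-151842926, plus strand) encode ligands without a promoter peak, and 0 of their 240 and 250 bases were in a peak. The Wnt7a stretch held 32 CpG dinucleotides and that of Rspo4 24, beside 17 for Fzd7, 12 for Fzd4 and 10 for Lgr4. These counts are from stretches of unequal length. Windows of 300 bases at the RefSeq starts held 42 for Wnt7a, 31 for Rspo4, 24 for Fzd7, 32 for Fzd4 and 18 for Lgr4. The median over members with such a window was 31, so Fzd7 and Lgr4 lay below it.
Fzd7: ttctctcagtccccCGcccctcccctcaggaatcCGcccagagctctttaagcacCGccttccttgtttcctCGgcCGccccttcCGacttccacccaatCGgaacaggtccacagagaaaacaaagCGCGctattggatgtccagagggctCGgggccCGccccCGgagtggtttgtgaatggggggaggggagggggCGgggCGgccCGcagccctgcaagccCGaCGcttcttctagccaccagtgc
Fzd4: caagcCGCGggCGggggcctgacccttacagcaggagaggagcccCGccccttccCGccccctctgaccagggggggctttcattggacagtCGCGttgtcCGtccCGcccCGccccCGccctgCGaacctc
Lgr4: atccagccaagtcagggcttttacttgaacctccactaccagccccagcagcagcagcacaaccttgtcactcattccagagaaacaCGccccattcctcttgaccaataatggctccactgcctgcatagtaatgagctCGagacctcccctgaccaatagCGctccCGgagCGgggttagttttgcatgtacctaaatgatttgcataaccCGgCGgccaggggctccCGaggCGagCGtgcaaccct
Wnt7a: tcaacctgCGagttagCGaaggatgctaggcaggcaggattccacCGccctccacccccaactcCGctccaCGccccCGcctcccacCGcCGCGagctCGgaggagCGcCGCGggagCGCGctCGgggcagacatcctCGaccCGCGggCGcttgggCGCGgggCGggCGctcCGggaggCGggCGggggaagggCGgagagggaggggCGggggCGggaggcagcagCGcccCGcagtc
Rspo4: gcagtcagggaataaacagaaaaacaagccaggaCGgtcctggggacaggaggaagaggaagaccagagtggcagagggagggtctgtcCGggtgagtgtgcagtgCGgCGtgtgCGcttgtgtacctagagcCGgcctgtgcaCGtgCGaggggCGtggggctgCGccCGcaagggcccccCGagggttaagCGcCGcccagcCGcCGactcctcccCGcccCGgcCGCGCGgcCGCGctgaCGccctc

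A promoter peak was defined as a peak within 3 kb of any annotated transcription start site (TSS) of the gene. Of the 53 members, 45 had at least 1 (84.9%, Wilson 95% confidence interval 72.9 to 92.1%), beside 67.8% of all protein-coding genes. This interval covers counting error only, and genes are not replicates. A TSS of the gene itself lay inside a peak for 39 members, beside 62.1% of all protein-coding genes. The 45 members held 97 promoter peaks, of which 44 lay over a TSS of their own gene and were 2224 bp wide at the median, while the other 53 had a median of 838 bp.

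Promoter peaks of the pathway were not wide as a group. The widest promoter peak of a member had a median of 2220 bp and ranged from 717 to 18001 bp, and over all protein-coding genes that had one the median was 3430 bp. Peaks 5 kb or wider occurred at 9 members (17.0%), beside 16.5% of all protein-coding genes, so that the share was that of the background. The members were spread by role. Among the 31 members that encode secreted proteins, 23 had a promoter peak, and 1 (Sfrp4) had one 5 kb or wider. All 22 members whose products act on or in the receiving cell had a promoter peak, and at 8 of them it was 5 kb or wider. The median width of the widest promoter peak was 1470 bp for the secreted members and 4280.5 bp for the members acting on or in the cell. With intervals less than 1 kb apart joined, these medians were 2716 and 5333.5 bp. This division into secreted and cell-bound members was made after the values had been seen, and no test of it was run.

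**Figure D1:**
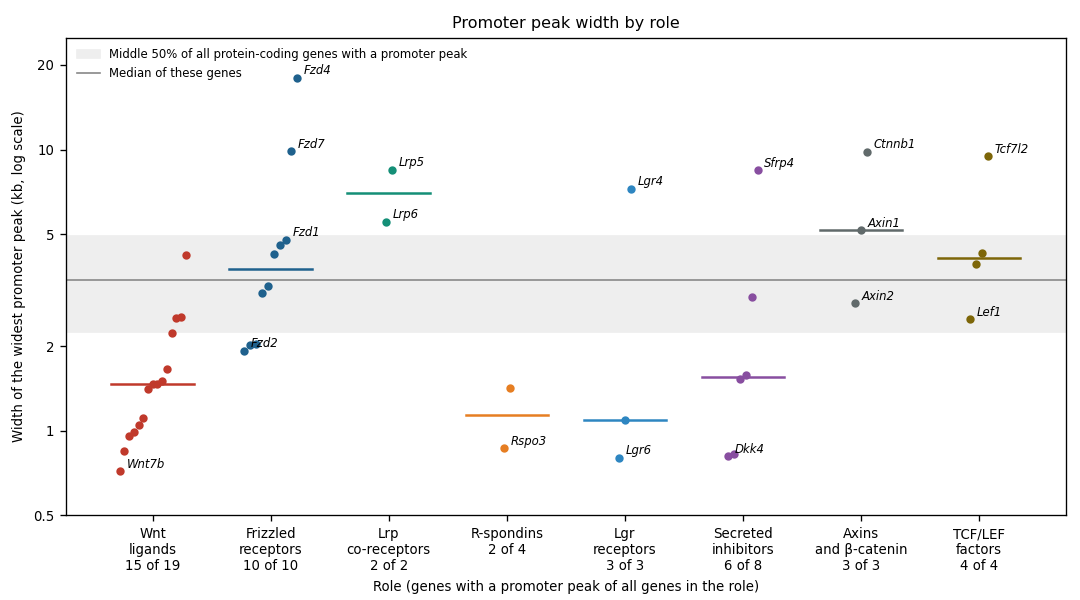
Width of the widest promoter peak in kb (log scale) for each member with one, by role, with the count of such genes of all genes in the role under each name. Points are genes, coloured lines are the medians of the roles, and the grey band and line are the middle 50% and the median (3430 bp) of all protein-coding genes with a promoter peak; 14 of the 15 Wnt ligands lie below that line, and Fzd4 stands highest at 18001 bp.

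How much of the start was covered had the same order, but it is measured on the same intervals and is not independent of peak width. Within 3 kb on either side of the gene start, the median covered share was 24.5% for the secreted members, 66.3% for the members acting on or in the cell and 38.6% for all protein-coding genes. At 1 kb downstream of the principal transcript's start, 38.7% of the secreted members and 95.5% of the others were inside a peak. For all protein-coding genes the share there was 52.6%. At 2 kb downstream the shares were 12.9% and 68.2%, beside 32.3% of all protein-coding genes. Peaks over the principal start reached further into the gene than upstream of it in 27 of 37 members, with median extents of 1424 bp downstream and 872 bp upstream. This count was not made over all protein-coding genes. Of those, 43.3% were inside a peak at 1 kb upstream and 52.6% at 1 kb downstream. Among the secreted members these shares were 22.6% and 38.7%, and among the other members 59.1% and 95.5%. A lean in this direction thus occurred over all genes too, with a larger gap between the shares in the members.

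**Figure D2:**
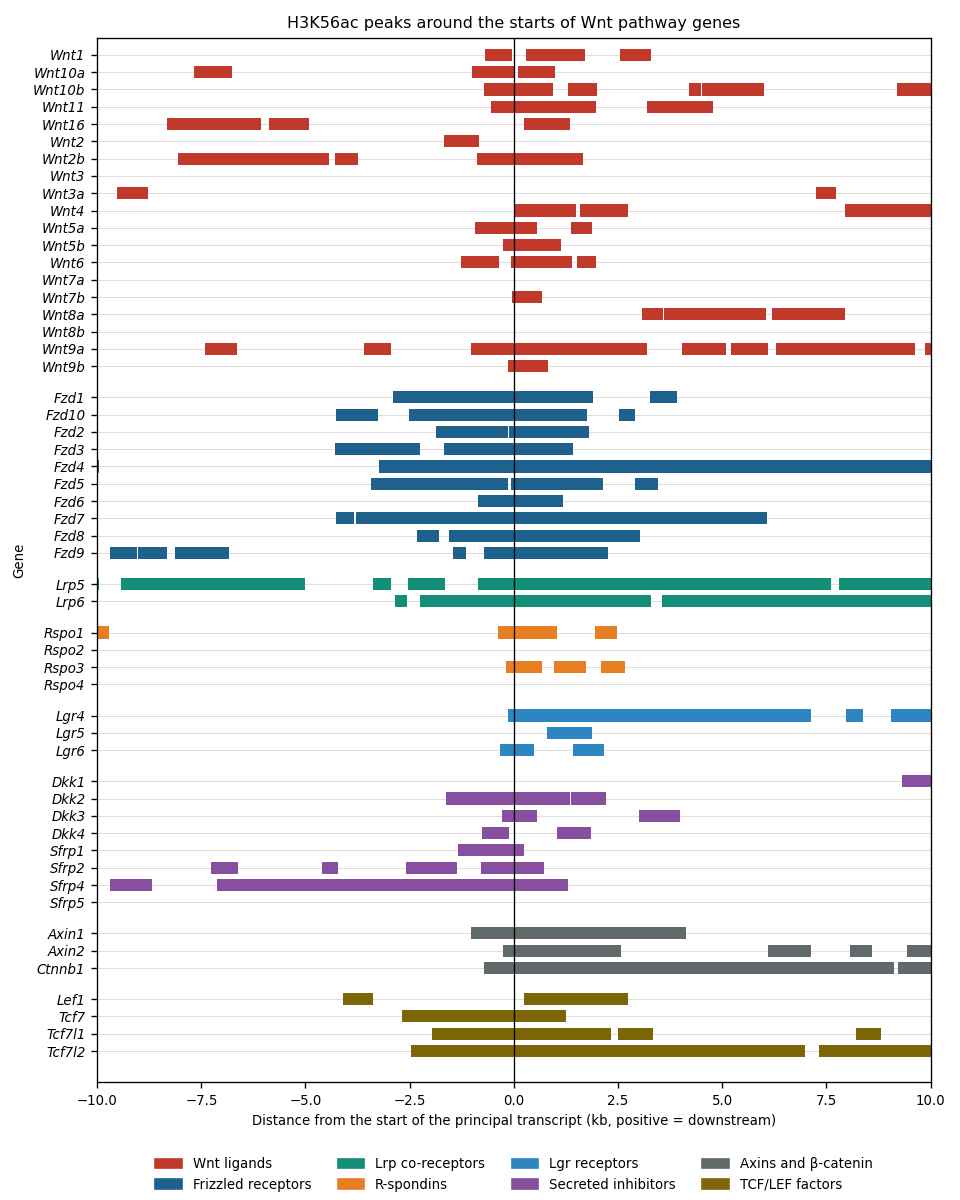
Every H3K56ac peak within 10 kb of the start of the principal transcript of each of the 53 members, one line per gene, coloured by role, with distance in kb and positive values downstream. Bars are peaks drawn to scale, and the vertical line is the start; bars cross it in all 10 Frizzled genes, whereas the lines of Wnt3, Wnt7a, Wnt8b, Rspo2, Rspo4 and Sfrp5 are empty.

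Wnt ligands had a promoter peak in 15 of 19 genes, and the widest of each gene measured between 717 bp (Wnt7b) and 4224 bp with a median of 1470 bp. Single promoter peaks of ligand genes were as narrow as 459 bp, at Wnt6, and none reached 5 kb. The widest lay over Wnt9a (chr11:59305901-59310124), from 1029 bp upstream to 3194 bp downstream of the principal start, and peaks covered 40.8% of that gene. Wnt2b followed with 2542 bp and Wnt11 with 2520 bp. Wnt5b, a ligand known mainly from β-catenin-independent signalling, had 5 promoter peaks, of which the widest (2220 bp) lay at an alternative start 76402 bp or more into the gene and the one over the principal start was 1388 bp wide. Peaks covered 18.3% of its 112 kb, more than in 77.5% of the genes of similar length. In 4 ligand genes (Wnt1, Wnt2, Wnt4 and Wnt8b) the promoter peak stood beside a start and not over it.

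Wnt4, whose product is a signal of the muscle fiber to the MuSC, carried peaks of 1470 and 1169 bp. The first began 29 bp downstream of the start (chr4:137277518-137278987, over exon 1), and 6 peaks covered 33.8% of the gene, a share above that of 89.4% of the 2485 protein-coding genes within 20% of its length. Upstream of the Wnt4 start no peak occurred for 45175 bp. The RefSeq start of Wnt4, 146 bp from the GENCODE start, lay inside the first peak. Wnt1 had peaks on both sides: its start fell into a gap of 341 bp, with a peak ending 43 bp upstream and another beginning 299 bp downstream. Peaks covered 53.9% of Wnt1, the highest share of any ligand gene. At Wnt8b the principal start had no peak within 3 kb, and its promoter peaks of 786 and 991 bp stood at an alternative start, 16882 bp or more into the gene. Wnt2 had a single peak of 850 bp, 829 bp upstream of its start, and no base of the gene itself was covered.

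The 4 ligand genes without a promoter peak were Wnt3, Wnt3a, Wnt7a and Wnt8a. Wnt8a (chr18:34542313-34548273) fell just outside the limit, with a peak 3085 bp downstream of its start and 47.9% of the gene covered. For Wnt3a (chr11:59248033-59290752), a canonical ligand, the nearest peak lay 7258 bp downstream, inside the gene, and 3 peaks covered 7.62% of it. Wnt3 (chr11:103774150-103817957) had no peak within 24193 bp of its start, and the nearest was the promoter peak of Wnt9b. Wnt7a (chr6:91363981-91411363), the ligand that acts on MuSCs through FZD7, had no covered base over 47.4 kb. Around its principal start no peak occurred for 28336 bp upstream and 52109 bp downstream. The nearest to any of its starts was a peak of 435 bp beyond the gene's end, 5817 bp from an alternative start.

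Several ligand genes lie in neighbouring pairs, which allowed a comparison over short distances. Wnt9a and Wnt3a are read away from each other and their starts are 16176 bp apart, and Wnt9a had 2 promoter peaks (4224 and 655 bp) where Wnt3a had none. Wnt9b and Wnt3 are arranged likewise with 24329 bp between their starts. Wnt9b had a peak of 956 bp over its start and Wnt3 had none, and peaks covered 0.559% of the stretch between the genes. Wnt10b and Wnt1, with starts 11707 bp apart, had 2 and 3 promoter peaks. Wnt6 and Wnt10a are read in the same direction 6193 bp apart, with 4 and 2 promoter peaks. None of the 4 pairs shared a promoter peak.

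Frizzled receptors, the seven-pass membrane proteins that bind Wnt ligands, all had a promoter peak with their own start inside it. Their widest promoter peaks had a median of 3767 bp and ranged from 1925 bp at Fzd2 to 18001 bp at Fzd4. Frizzled genes are short and most are encoded by few exons, and peaks covered a median of 55.4% of the gene. At least 50% of the gene was covered in 8 of the 53 members, beside 9.90% of all protein-coding genes, and 6 of these 8 were Frizzled genes. The other two were Lrp6 (51.0%) and Wnt1 (53.9%).

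Fzd7 (chr1:59482424-59486955), the WNT7A receptor of MuSCs, is a single-exon gene and was covered whole by 1 peak of 9871 bp (chr1:59478627-59488497). This peak ran from 3797 bp upstream to 6073 bp downstream of the start. Its width exceeded that of 96.1% of the promoter peaks of protein-coding genes, taking the widest of each gene, and among the 1621 genes within 20% of its length the median covered share was 0%. The ligand and the receptor of this pair thus stood at opposite ends of the list, with 100% of Fzd7 and 0% of Wnt7a covered.

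Fzd4 (chr7:89404355-89413134), a receptor that also binds the non-Wnt ligand norrin, lay whole in a peak of 18001 bp (chr7:89401120-89419120) that spanned its exons 1 and 2. That peak also lay over a start of the neighbouring gene Tmem135, so its width cannot be given to Fzd4 alone. Fzd9 was covered to 98.0% of its 2293 bp by a peak of 2012 bp and a second one of 949 bp. Fzd10 had 65.1% of the gene covered and a widest peak of 4264 bp, and Fzd1 (chr5:4753839-4758035) had 60.4% and a peak of 4778 bp (chr5:4756149-4760926). Fzd8 had 50.5% and a peak of 4563 bp. In Fzd5 and Fzd2 a break close to the start divided the signal: the Fzd5 peaks were 3270 and 2213 bp wide, and those of Fzd2 1706 and 1925 bp. The long genes of the family, Fzd3 (70.0 kb, 2.04% covered) and Fzd6 (32.2 kb, 3.66% covered), had peaks of 3094 and 2027 bp at the start and no other peak inside the gene. A second promoter peak of Fzd3, 2055 bp wide and 2248 bp upstream of the start, lay over a start of the neighbouring gene Fbxo16.

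**Figure D3:**
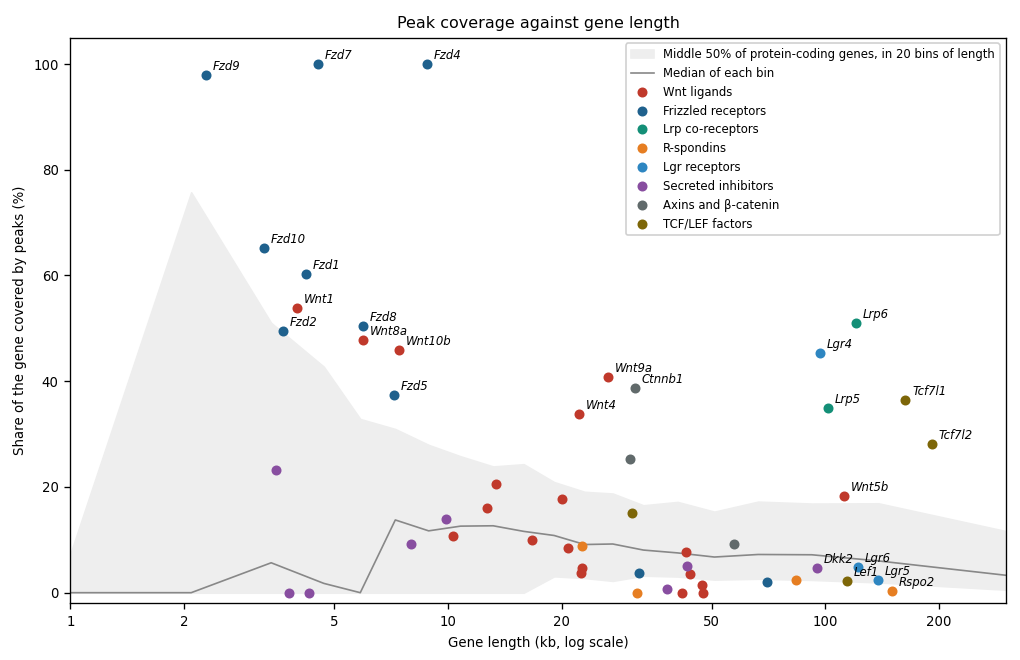
Share of each member gene covered by peaks (in percent) against gene length in kb (log scale), coloured by role. The grey band and line are the middle 50% and the median of protein-coding genes in 20 bins of length; Fzd4 and Fzd7 are at 100%, and among genes near or above 100 kb Lrp6 (51.0%), Lgr4 (45.3%), Tcf7l1 (36.5%), Lrp5 (34.8%), Tcf7l2 (28.1%) and Wnt5b (18.3%) lie above the band.

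Both Lrp co-receptors, which pair with a Frizzled receptor in canonical signalling, had wide promoter peaks and further peaks along the gene. Lrp5 (chr19:3584828-3686564) carried a peak of 8487 bp from 872 bp upstream to 7614 bp downstream of the principal start (chr19:3678942-3687428), and Lrp6 (chr6:134446476-134566965) carried a peak of 5544 bp (chr6:134563632-134569175). Of the 102 kb of Lrp5, 34.8% lay in 13 peaks, and of the 120.5 kb of Lrp6, 51.0% lay in 29 peaks. These shares were above those of 89.5% and 95.5% of the protein-coding genes within 20% of their lengths, for which the medians were 7.32% and 6.89%. Coverage was concentrated towards the start: of 5 equal parts of Lrp5 the first was covered to 98.6% and the last to 1.95%, and for Lrp6 the shares were 84.6% and 6.81%. In each gene most of intron 1 was covered, 88.4% of 26.7 kb in Lrp5 and 84.9% of 24.6 kb in Lrp6.

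The receptors for R-spondins differed from one another. Lgr4 (chr2:109917647-110014257) had a promoter peak of 7266 bp (chr2:109917501-109924766) that began 146 bp upstream of its start, and 24 peaks covered 45.3% of its 96.6 kb. That share was above that of 93.7% of the 1256 protein-coding genes within 20% of its length, whose median was 7.20%. Of the 24 peaks, 18 overlapped intron 1 of Lgr4. Lgr5, best known as a stem cell marker of the intestine, had a promoter peak of 1094 bp that stood 504 bp downstream of its nearest start, and 2.40% of its 137 kb was covered. Lgr6 had promoter peaks of up to 803 bp and 4.89% of its 122 kb covered. Less coverage was found in 27.3% of the genes of similar length for Lgr5 and in 42.3% for Lgr6, so both lay below the middle of such genes.

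R-spondin genes themselves had covered shares below the median of genes of similar length. For Rspo1 that median was 9.64%, close to its own share. Rspo1, which acts through LGR4 in muscle progenitors, had a peak of 1416 bp over its start (chr4:124986051-124987466) and 8.79% of the gene covered. Rspo3 had 3 promoter peaks of 584 to 866 bp and 2.42% covered. Rspo2 (chr15:43020794-43170826) had a single peak of 507 bp in 150.0 kb, 34329 bp from the nearest start. In Rspo4 (chr2:151842927-151874668) no base was covered, and the nearest peak was that of Angpt4, 67952 bp downstream of the Rspo4 start.

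**Figure D4:**
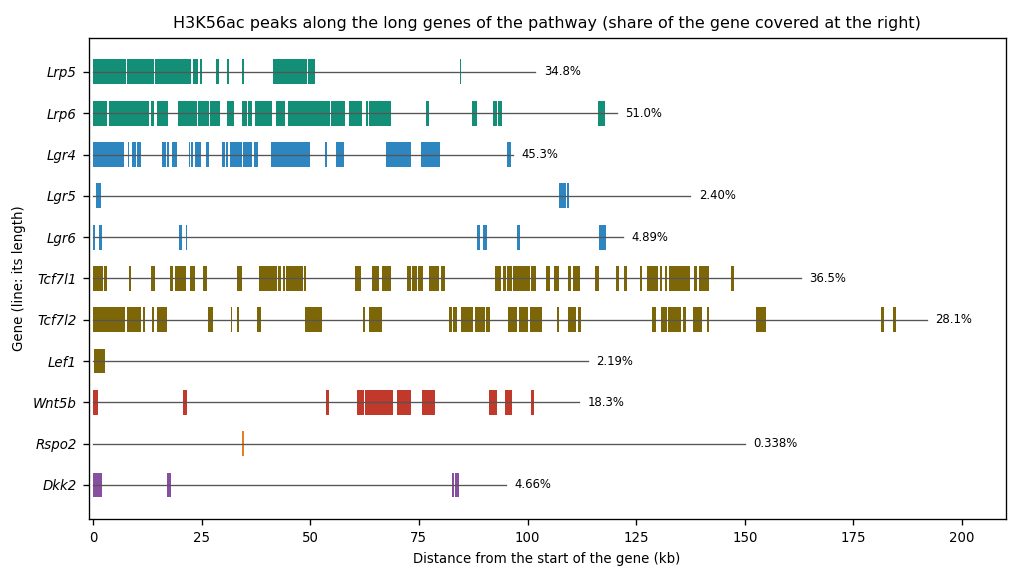
Peaks along 11 long member genes, drawn to scale from the start of each gene (distance in kb), with the line giving the gene's length and the number at the right the share covered. Lrp5, Lrp6, Lgr4, Tcf7l1 and Tcf7l2 carry peaks over much of their length, whereas Lef1 has a single peak at its start and Rspo2 a single peak of 507 bp.

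Among the secreted inhibitors, 6 of 8 had a promoter peak, and the widest of each had a median of 1547.5 bp. Sfrp4 (chr13:19623104-19632994) stood apart with 8423 bp (chr13:19616060-19624482), which reached from 7115 bp upstream to 1307 bp downstream of its principal start. This peak also covered a start of Epdr1, the neighbour read in the other direction, and 13.9% of Sfrp4 itself was covered. Without peaks that lie over the start of another protein-coding gene, no secreted member kept a promoter peak 5 kb or wider. Of all protein-coding genes, 11.5% kept one. Sfrp1 and Sfrp2 had peaks of 1573 and 1522 bp over their starts. Dkk2 had a peak of 2978 bp, Dkk3 one of 824 bp and Dkk4 peaks of 655 and 813 bp on either side of its start.

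Dkk1 and Sfrp5 had no promoter peak. The nearest to Dkk1 (chr19:30545863-30549665), which encodes a blocker of LRP5 and LRP6, lay 9314 bp downstream of its start and beyond the end of the gene, and upstream there was no peak for 522725 bp. For Sfrp5 (chr19:42197971-42202252) the nearest lay 30122 bp away at Zfyve27. No base was covered in 5 members (Wnt2, Wnt7a, Rspo4, Dkk1 and Sfrp5), which is 9.43% of the members beside 30.9% of all protein-coding genes, and all 5 encode secreted proteins.

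The genes of the destruction complex and β-catenin had peaks over their starts. Ctnnb1 (chr9:120929216-120960507), which encodes β-catenin, had 1 promoter peak of 9826 bp (chr9:120932691-120942516), from 709 bp upstream to 9116 bp downstream of the principal start, and 38.7% of the gene was covered. The outermost annotated start of Ctnnb1 lies upstream of that peak, and the 3 kb on either side of it were covered to 0%, while those around the principal start were covered to 61.8%. Axin1 (chr17:26138688-26195811) had a peak of 5168 bp over exons 1 and 2 (chr17:26137660-26142827) and 9.29% of the gene covered. Axin2 (chr11:108920349-108950783), a feedback inhibitor that is itself induced by canonical signalling, had a peak of 2841 bp (chr11:108920082-108922922) and 7 peaks over 25.2% of the gene, a share above that of 83.6% of the genes of its length.

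All 4 TCF/LEF factors had a promoter peak, and they differed in the rest of the gene. Tcf7l2 (chr19:55741820-55933654) had a peak of 9463 bp over exons 1 to 3 (chr19:55739794-55749256) and 35 peaks over 28.1% of 192 kb. Tcf7l1, known mainly as a repressor, had a promoter peak of 4297 bp and the largest number of peaks of any member, 47, over 36.5% of 163 kb. Coverage of Tcf7l1 was spread along the gene, with 29.7 to 43.4% in each of 5 equal parts. Lef1, at 114 kb, had 1 peak of 2496 bp that began 253 bp downstream of the principal start, and 2.19% of the gene was covered. Tcf7 had a peak of 3923 bp and 15.1% covered. The shares of length-matched genes with less coverage were 90.6% for Tcf7l1, 84.8% for Tcf7l2, 69.7% for Tcf7 and 24.8% for Lef1.

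Base composition of the promoters was then set beside the peaks, since CpG-rich promoters often carry acetylated histones. The RefSeq promoter table (250 bases before to 50 after the start) matched 35 of the 53 members and 16521 protein-coding genes. Its windows for members held a median of 31 CpG dinucleotides, beside 14 for all genes, and the ratio of observed to expected CpG was 0.810 beside 0.601. Over all genes, the share of windows overlapping a peak rose from 17.5% at ratios under 0.4 to 67.9%, 89.0% and, at ratios of 0.8 or more, 95.1%. Of the 18 members in that last class, 14 overlapped a peak. The 4 that did not were Wnt2, Wnt3a, Wnt7a and Rspo4, and all 4 encode secreted ligands or agonists. The window of Wnt3a held 45 CpG dinucleotides and that of Wnt7a 42, more than that of Fzd7 (24) or Fzd4 (32). At ratios from 0.6 to 0.8, 9 of 12 members overlapped a peak, and Wnt3, Sfrp5 and Lef1 did not. In the classes below, the counts were 2 of 3 and 0 of 2.

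**Figure D5:**
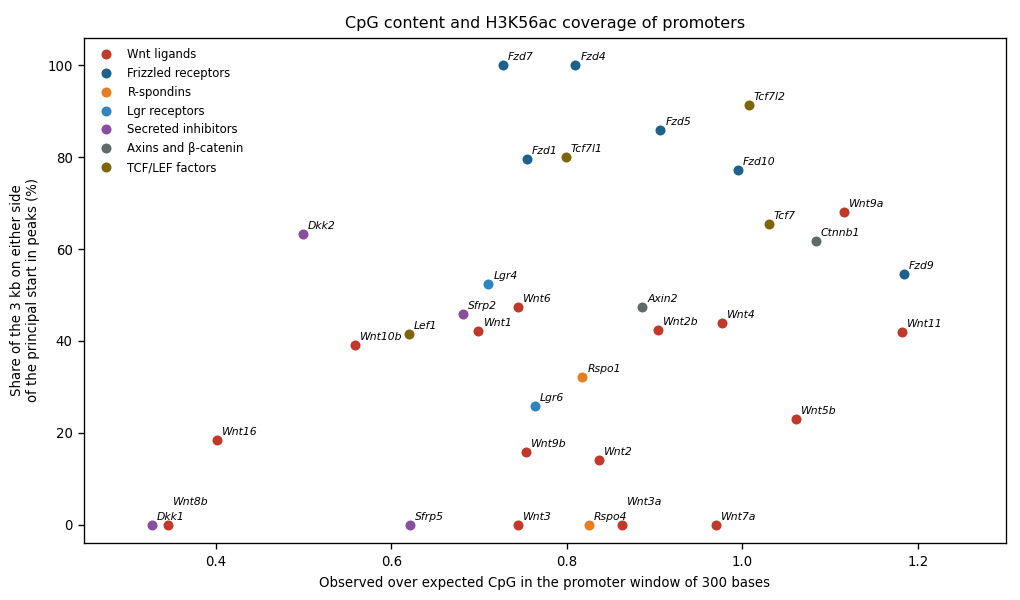
Share of the 3 kb on either side of the principal start that lies in peaks (in percent) against the ratio of observed to expected CpG in the promoter window of 300 bases, for the 35 members with a RefSeq window, coloured by role. Rspo4, Wnt3a and Wnt7a lie at 0% with ratios above 0.8, Fzd7 and Fzd4 at 100% with ratios of 0.727 and 0.810, and Lrp5 and Lrp6 have no window here.

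The binding motif of TCF/LEF factors was searched in the same windows as CTTTGAT or CTTTGTT on either strand; these variants differ in 1 base and cannot occupy the same place. A match occurred in 4 of the 35 members (11.4%), beside 7.96% of all windows of the same length. Within 1 kb on either side the order turned, with a match in 34.3% of the 35 members and 49.2% of all genes. The matches were in Dkk1, Fzd7, Wnt11 and Wnt3. In Fzd7 it was CTTTGTT on the minus strand, with its leftmost base 130 bases before the RefSeq start, and it appears in the printed stretch as AACAAAG in lower case. Axin2, a target of the pathway, had no match in this window and 2 within 1 kb on either side of the start. A match describes letters only and says nothing of binding.

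Further genes of the pathway, listed for their known functions, gave a wider view. A promoter peak was found at 54 of 57 such genes (94.7%, with Wilson limits of 85.6 and 98.2%), 18 had one 5 kb or wider and 9 were covered by at least 50%. Over all protein-coding genes these shares were 67.8%, 16.5% and 9.90%. The widest promoter peak had a median of 3262 bp, beside 3430 bp over all genes, and the median covered share was 18.6%, beside 7.82%. The genes named from this list were chosen after their values were seen. Whether their peaks also lie over starts of neighbouring genes was not examined, so a width may not belong to the named gene alone. Without a promoter peak were Cer1 (a secreted inhibitor), Nkd2 (a Dishevelled-binding inhibitor) and Celsr1 (a planar polarity cadherin). The kinases of the destruction complex had wide peaks, with 9685 bp at Gsk3b, 9282 bp at Csnk1a1 and 5949 bp at Gsk3a, and the scaffold Apc had 5646 bp. Wls, which carries Wnt proteins to the surface of the cell that makes them, had 5480 bp, and Porcn, which attaches their lipid, had 1932 bp. Kremen1, a receptor for DKK proteins, had a peak of 13829 bp and 83.2% of the gene covered.

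Of the receptors outside the Frizzled family, Ror1 was covered by 83.2% of its length in 100 peaks, whereas Ror2, its paralogue, had 9 peaks over 4.04%. Ryk had 7181 bp at the promoter and 34.4% of the gene covered. ROR and RYK receptors act in β-catenin-independent signalling, as does Daam1, a formin downstream of Dishevelled. Daam1 had the widest promoter peak of the 57 genes (18734 bp). Of the ubiquitin ligases that remove Frizzled receptors and are held off by R-spondins, Znrf3 had 44 peaks over 45.1% of the gene and Rnf43 4 peaks over 5.69%. Of the secreted antagonists, Wif1 had a peak of 2189 bp, Frzb one of 2701 bp and Sost one of 1607 bp that stood 2357 bp from its start. Peaks of similar or lesser width also occurred at genes that act in the cell, such as Nkd1 (590 bp), Ctnnbip1 (1435 bp) and Tle2 (1796 bp). The target genes Myc (94.4%) and Ccnd1 (85.0%) were largely covered, and Sp5, also a target, was covered to 20.7%.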

How the data were processed

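MuSC chromatin was profiled with an antibody against H3K56ac, beside input. The authors trimmed reads with Trim Galore, aligned them to mm10 with bowtie (single alignments only), removed duplicates with Picard, called peaks with MACS2, filtered them against blacklisted regions and merged overlapping peaks with GenomicRanges. FastQC, SAMtools and deepTools also appear in the submitters' processing notes. The deposited list gives the position of each interval and a score that was 0 throughout, with 0 columns that hold a sample's values. Requiring a single alignment lowers the chance of a peak in repeated sequence, and the depth of each library is unknown from this list.

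Positions are 1-based on GRCm38 (mm10), where no interval ran past a chromosome end. Genes and TSSs came from GENCODE vM21. Sfrp3 names no gene there, and Frzb was counted among the further genes. Promoter peaks were intervals within 3 kb of any TSS. The covered share was the share of gene bases under intervals, also set beside that of genes differing by up to 20% in length. The further genes, the markers and the roles were fixed in the design, and the members and lists were chosen with earlier results of these data known. Full values were given for the 10 members with the widest promoter peak, the 5 with the highest covered share, members without a promoter peak, neighbours within 100 kb, and Wnt4, Wnt7a, Fzd7, Rspo1, Lgr4, Axin2 and Ctnnb1. Other members and further genes were named after their values were seen. RefSeq promoter windows of 18 members were not used here (Lrp6, Dkk4, Lrp5, Sfrp4, Fzd8, Lgr5, Rspo3, Fzd3, Dkk3, Fzd2, Sfrp1, Wnt7b, Axin1, Wnt10a, Wnt5a, Rspo2, Wnt8a and Fzd6). One Schwann cell marker of the lists is not reported here. The interval functions were tested on simulated data, and Python 3.11.15, NumPy 2.4.6, SciPy 1.17.1 and Matplotlib 3.10.9 were used. No significance test was run. The alternatives were promoters of 1 or 5 kb, other TSS sets, intervals of at least 500 bp, joined intervals, other windows and, chosen after seeing the data, the principal start and peaks off other genes' starts.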

Additional observations from a re-analysis of the deposited data

How the results depend on the processing

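Of 22 alternatives for 6 results, 19 left the value within the limits set for it and 3 moved it. Joining intervals less than 1 kb apart raised the members with a promoter peak of at least 5 kb from 9 to 15 (28.3%), while the share of all protein-coding genes rose to 27.8%. A window of 1 kb in place of 3 kb raised the median covered share around the start from 41.6% to 69.0%, and that of all genes to 71.2%. Searching the TCF/LEF motif within 1 kb on either side raised the matches from 4 to 12 members (34.3%), below the 49.2% of all genes. The median of the members acting on or in the cell exceeded that of the secreted members in all 11 alternatives for the medians, with joined intervals bringing the median widths closer (5333.5 and 2716 bp). These alternatives reuse the same peak list and are not independent, and this division was made after the values had been seen. Leaving out peaks over another gene's TSS, chosen after seeing the data, left 7 members with a peak of at least 5 kb and removed Fzd4 and Sfrp4. These were 13.2% of the members, while the share of all protein-coding genes fell to 11.5%.

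No paired analysis was possible because libraries are not told apart in the list. For the same reason the test of Sirt6mKO against Control, its replicate block, leaving out each replicate and DESeq2 were not run. Peak height, replicate spread and depth cannot be read from this list.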
